A study of Mus musculus with 21 samples.

Results

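Erythroid genes other than globins were followed in hearts of mouse embryos with whole or recombined alleles of Chd4, which encodes a chromatin remodeller. The 9 genes were taken by symbol from the 24509 genes of the expression tables: the transcription factor genes Gata1, Klf1, Tal1 and Nfe2, the erythropoietin receptor gene Epor, the heme and iron genes Alas2 and Tfrc, and the membrane genes Slc4a1 and Epb42. CHD4 is the ATPase of the NuRD complex, which couples nucleosome remodelling with histone deacetylation. Polyadenylated RNA came from cardiac tissue of CD1 embryos at embryonic day (E) 9.5 and E10.5. The control genotype, called flox, is Chd4(flox/flox), in which the alleles are floxed and still whole, and the genotype called null is Chd4(Δflox/Δflox), in which they are recombined. There were 5 flox and 5 null libraries at E9.5, from 200 ng of RNA each, and 3 flox and 3 null libraries at E10.5, from 300 ng of RNA each. The submitters count them as biological replicates. The recombinase, the cells in which it acts and the number of hearts in a library are not given in the sources used here. CHD4 binding had been mapped in wild-type CD1 hearts at E10.0, in 3 libraries that the submitters count as 2 biological replicates.

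Blood cells of the midgestation embryo are mostly primitive erythrocytes, which arise in the yolk sac, circulate through the heart and carry embryonic globins. Their genes are driven by the zinc finger factor GATA1, the Krüppel-like factor KLF1, the helix-loop-helix factor TAL1 and the leucine zipper factor NF-E2, which bind GATA, CACC, E-box and NF-E2 motifs. Erythropoietin signals through its receptor to keep red cell precursors alive. Transferrin receptor 1, the product of Tfrc, brings iron into dividing cells of many kinds, and ALAS2 catalyses the first step of heme synthesis in erythroid cells. Band 3 (Slc4a1), the anion exchanger of the red cell membrane, is bound to the membrane skeleton with the help of protein 4.2 (Epb42).

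The 250 bases before the annotated start site are shown for 4 of the genes, 5′ to 3′ on the strand of the gene, from RefSeq on GRCm38.p6, the assembly of mm10. Klf1, Epor and Alas2 are shown as a factor, a receptor and a heme gene that were all higher in null hearts at E9.5. Tfrc is shown because it differed least between genotypes. Among the 7 genes with a start site given, Tfrc was also the 1 gene with a shared CHD4 peak over it. Capitals mark matches on either strand to a GATA motif, which was searched as AGATAA and AGATAG, to a CACC-type motif of KLF factors (CCNCNCCC) or to an NF-E2 motif (TGANTCA). The GATA motif was searched in its other usual spelling as well, with TGATAA and TGATAG. Matches of the CACC-type motif that overlap run together. The Klf1 stretch is chr8:84901732-84901981 on the plus strand. The Epor stretch is chr9:21963577-21963826 on the minus strand. The Alas2 stretch is chrX:150547167-150547416 on the plus strand. The Tfrc stretch is chr16:32608646-32608895 on the plus strand.
Klf1: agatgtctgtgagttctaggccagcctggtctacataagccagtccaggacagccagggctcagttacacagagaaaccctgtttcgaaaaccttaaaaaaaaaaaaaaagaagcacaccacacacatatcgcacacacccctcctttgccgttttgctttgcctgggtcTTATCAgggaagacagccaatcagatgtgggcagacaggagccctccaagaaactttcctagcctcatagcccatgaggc
Epor: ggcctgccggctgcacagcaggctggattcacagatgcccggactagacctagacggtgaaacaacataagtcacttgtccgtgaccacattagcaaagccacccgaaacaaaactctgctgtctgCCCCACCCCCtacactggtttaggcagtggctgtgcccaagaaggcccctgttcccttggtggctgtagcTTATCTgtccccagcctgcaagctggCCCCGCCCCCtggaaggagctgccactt
Alas2: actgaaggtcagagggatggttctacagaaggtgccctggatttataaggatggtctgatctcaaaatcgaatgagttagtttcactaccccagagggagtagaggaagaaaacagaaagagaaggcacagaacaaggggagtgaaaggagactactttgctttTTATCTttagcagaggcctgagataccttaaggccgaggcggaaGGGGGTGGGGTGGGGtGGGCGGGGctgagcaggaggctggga
Tfrc: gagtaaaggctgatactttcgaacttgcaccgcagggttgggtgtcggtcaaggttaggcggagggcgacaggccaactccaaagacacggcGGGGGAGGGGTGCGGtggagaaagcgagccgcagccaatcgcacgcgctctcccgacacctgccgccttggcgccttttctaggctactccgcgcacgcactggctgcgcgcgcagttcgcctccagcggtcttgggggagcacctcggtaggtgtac

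Of 9 genes, 7 had a promoter entry of 300 bases (250 before and 50 after the start), and Nfe2 and Slc4a1 had none. A GATA motif lay in the first promoter of 5 of the 7 (Klf1, Tal1, Epor, Alas2 and Epb42), where 29.8% of all 32851 promoters held one. The printed stretches of Klf1, Epor and Alas2 hold it 80, 54 and 86 bases before the start. A CACC-type motif was present in 4 of the 7 (Gata1, Epor, Alas2 and Tfrc), against 49.5% of all promoters. An E-box (CANNTG) was found in 6 of the 7, all but Alas2, against 72.3% of all promoters. No NF-E2 motif was found in any of the 7, where 7.81% of all promoters held one. The Tfrc promoter thus held CACC-type matches and an E-box but no GATA match in these letters, and the Epor and Alas2 promoters held GATA and CACC-type matches together, as 10.2% of all promoters did. These are matches of letters on both strands and not measured sites.

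The depth worked out from the RPKM values of each library was 17050298 to 23492785 reads. At this depth 1 RPKM (reads per kilobase of transcript and per 1000000 reads) of a 2 kb transcript was 34.1 to 47.0 reads. Every one of the 9 genes passed the filter of a mean of at least 0.5 RPKM at both stages, and the fewest reads on any of them in a library were 229, on Nfe2 in flox 2 at E9.5. Chd4, the targeted gene, stood at 91.2 to 94.6 RPKM in flox and 40.7 to 48.8 RPKM in null hearts at E9.5, and at 67.2 to 91.1 and 48.2 to 57.4 RPKM at E10.5. Cardiomyocyte markers were abundant throughout, at a summed 10555 to 22965 RPKM. The lowest sum was that of flox 2 of E10.5, and the next lowest was 14181 RPKM in null 2 of E10.5. The embryonic globin genes Hba-x, Hbb-bh1 and Hbb-y, which define primitive erythrocytes, each held at least 3193 RPKM in every library. In whole hearts, more erythroid cells in the sample and more RNA per erythroid cell cannot be told apart. Flox 3 stood apart at E9.5 for the adult-type globin gene Hbb-bs, at 962.5 RPKM against 27.6 to 285.3 RPKM in the other 9 libraries. At E10.5 flox 2, null 2 and null 3 stood apart for the fetal liver gene Afp, at 148, 865 and 728 RPKM, against 0.975 to 12.0 RPKM in the other 3 libraries.

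At E9.5 the question was how erythroid genes differ when CHD4 is depleted, and 8 of the 9 genes rose (limma, adjusted p under 0.05), where 6.87% of all 13643 tested genes rose and 10.3% fell. All 4 transcription factor genes were among them. Gata1 stood at 7.27, 5.25, 12.9, 6.75 and 8.39 RPKM in the 5 flox libraries and at 15.5, 23.5, 15.3, 24.1 and 18.4 RPKM in the 5 null libraries, in the order of their replicate numbers. All 5 null libraries lay above all 5 flox libraries. Gata1, the master regulator of the red cell lineage, rose from 8.11 ± 2.90 to 19.3 ± 4.25 RPKM (SD, n = 5 each), a log2 difference of 1.24 (SE 0.212, limma adjusted p = 0.0034). Tal1 stood at 12.8, 12.0, 17.3, 12.5 and 15.9 RPKM in the 5 flox libraries and at 20.8, 29.4, 21.6, 40.9 and 30.2 RPKM in the 5 null libraries, in the order of their replicate numbers. These groups did not overlap either. Tal1, which is needed for the formation of all blood cells, rose from 14.1 ± 2.35 to 28.6 ± 8.13 RPKM (SD, n = 5 each), a log2 difference of 0.97 (SE 0.176, limma adjusted p = 0.00459). Nfe2 stood at 3.995, 3.50, 6.56, 4.30 and 5.28 RPKM in the 5 flox libraries and at 8.11, 12.3, 7.09, 17.1 and 11.1 RPKM in the 5 null libraries, in the order of their replicate numbers. The lowest null library was again above the highest flox library. Nfe2, the p45 subunit of NF-E2, rose from 4.73 ± 1.21 to 11.1 ± 3.94 RPKM (SD, n = 5 each), a log2 difference of 1.12 (SE 0.225, limma adjusted p = 0.00737). Klf1 stood at 12.96, 9.98, 21.4, 9.94 and 15.2 RPKM in the 5 flox libraries and at 24.1, 33.8, 18.8, 36.7 and 30.5 RPKM in the 5 null libraries, in the order of their replicate numbers. The groups overlapped here, since flox 3 lay above null 3. Klf1, which drives adult globin and many other red cell genes, rose from 13.9 ± 4.76 to 28.8 ± 7.29 RPKM (SD, n = 5 each), a log2 difference of 1.04 (SE 0.228, limma adjusted p = 0.0111).

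The receptor and the heme gene rose as well, and Tfrc was the 1 gene that did not pass. Epor stood at 9.64, 7.29, 15.8, 8.44 and 9.34 RPKM in the 5 flox libraries and at 14.5, 24.9, 13.2, 24.6 and 19.3 RPKM in the 5 null libraries, in the order of their replicate numbers. Flox 3 lay above null 1 and null 3, so the groups overlapped. Epor rose from 10.1 ± 3.30 to 19.3 ± 5.48 RPKM (SD, n = 5 each), a log2 difference of 0.91 (SE 0.222, limma adjusted p = 0.0187). Alas2 stood at 43.6, 35.9, 109.6, 48.8 and 57.9 RPKM in the 5 flox libraries and at 84.4, 166, 88.8, 210.1 and 145 RPKM in the 5 null libraries, in the order of their replicate numbers. Flox 3 again lay above null 1 and null 3. Alas2 rose from 59.2 ± 29.3 to 139 ± 53.2 RPKM (SD, n = 5 each), a log2 difference of 1.25 (SE 0.320, limma adjusted p = 0.0226). Its call ended without any 1 of flox 1, flox 2, null 2 or null 5 (adjusted p 0.0520 to 0.0568). Tfrc stood at 80.2, 80.8, 97.9, 110.3 and 82.9 RPKM in the 5 flox libraries and at 92.1, 121, 96.7, 153 and 132 RPKM in the 5 null libraries, in the order of their replicate numbers. Flox 3 and flox 4 lay above null 1 and null 3, and flox 4 was not the highest flox library for any other of the 9 genes. Tfrc went from 90.4 ± 13.3 to 119 ± 25.2 RPKM (SD, n = 5 each), a log2 difference of 0.38 (SE 0.144, limma adjusted p = 0.0940), and passed without null 1 (adjusted p = 0.0393).

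The 2 membrane genes had the largest differences of the 9. Slc4a1 stood at 37.6, 32.9, 76.1, 40.3 and 53.96 RPKM in the 5 flox libraries and at 87.3, 148, 85.7, 221 and 129 RPKM in the 5 null libraries, in the order of their replicate numbers. All 5 null libraries lay above all 5 flox libraries. Slc4a1 rose from 48.2 ± 17.5 to 134 ± 55.3 RPKM (SD, n = 5 each), a log2 difference of 1.44 (SE 0.284, limma adjusted p = 0.00678). Epb42 stood at 3.47, 3.89, 7.03, 3.69 and 4.67 RPKM in the 5 flox libraries and at 8.47, 14.6, 8.998, 15.9 and 14.9 RPKM in the 5 null libraries, in the order of their replicate numbers. These groups did not overlap. Epb42 rose from 4.55 ± 1.46 to 12.6 ± 3.55 RPKM (SD, n = 5 each), a log2 difference of 1.37 (SE 0.219, limma adjusted p = 0.00247). Its adjusted p was the smallest of the 9.

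**Figure D1:**
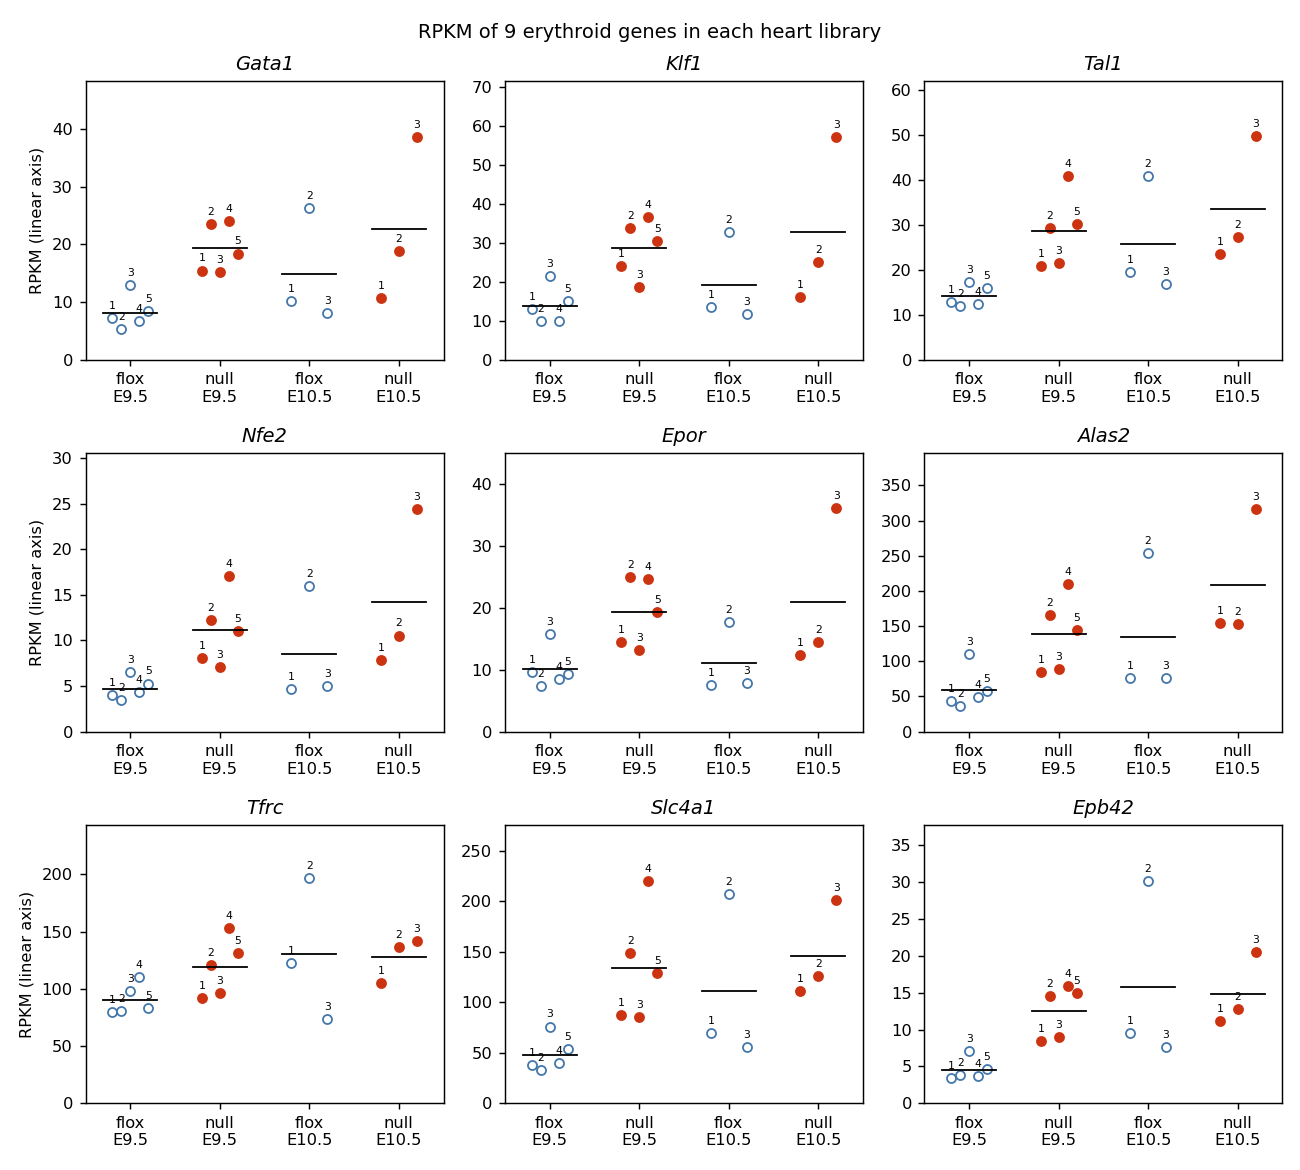
RPKM of each of the 9 genes (linear axis from 0) in every library, open blue points for flox and filled red points for null, with the replicate number above each point and a line at the group mean. At E9.5 Gata1, Tal1, Nfe2, Slc4a1 and Epb42 show no overlap between flox and null, and at E10.5 all 9 genes overlap, with flox 2 and null 3 the highest library of their group in each panel.

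For 5 of the 9 genes the lowest null value exceeded the highest flox value at E9.5, as it did for 5.5% of all tested genes. The median log2 difference of the 9 was 1.12, beside -0.04 over all genes tested. Within each group the same libraries led: among flox libraries flox 3 was highest for 8 of the 9 genes and flox 2 lowest for 6, and among null libraries null 4 was highest for 8. Without flox 3 the median log2 difference was 1.23 and 8 genes passed, all but Tfrc, and without null 4 it was 0.95, again with all but Tfrc. The epicardial marker genes were low in flox 1, flox 3 and null 1, and without these 3 libraries all but Tfrc passed with a median of 1.30. The authors' deposited table of changed genes at E9.5 lists all 9 of these genes among its 3094. Its log2 ratios of control over null ran from -1.20 for Epb42 to -0.39 for Tfrc, with adjusted p-values of 5.95e-09 and 0.0314. Tfrc is thus listed by the authors and missed the threshold here.

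At E10.5 none of the 9 genes passed (0 of 9, where 1.77% of 14100 tested genes rose and 0.305% fell). None had an unadjusted p under 0.05, where 11.6% of tested genes were higher in null hearts at that level, and voom on recovered reads called 0 of the 9. The groups overlapped for all 9, while 13.9% of tested genes had null libraries that all exceeded the flox libraries. Gata1 stood at 10.1, 26.3 and 8.12 RPKM in flox and 10.7, 18.9 and 38.6 RPKM in null hearts, a log2 difference of 0.59 (SE 0.518, limma adjusted p = 0.514). Klf1 stood at 13.5, 32.8 and 11.7 RPKM in flox and 16.02, 25.2 and 57.3 RPKM in null hearts, a log2 difference of 0.70 (SE 0.498, limma adjusted p = 0.418). In both genes flox 2 lay above null 1 and null 2, and null 3 was the highest library. Tal1 stood at 19.5, 40.9 and 16.9 RPKM in flox and 23.5, 27.4 and 49.7 RPKM in null hearts, a log2 difference of 0.41 (SE 0.371, limma adjusted p = 0.534). Nfe2 stood at 4.67, 15.97 and 4.99 RPKM in flox and 7.81, 10.5 and 24.4 RPKM in null hearts, a log2 difference of 0.76 (SE 0.517, limma adjusted p = 0.395). For these factors too, flox 1 and flox 3 were the lowest libraries. Epor stood at 7.48, 17.8 and 7.82 RPKM in flox and 12.3, 14.4 and 36.1 RPKM in null hearts, a log2 difference of 0.84 (SE 0.442, limma adjusted p = 0.287), the largest of the 9. Alas2 stood at 75.8, 254 and 75.7 RPKM in flox and 155, 153 and 316 RPKM in null hearts, a log2 difference of 0.78 (SE 0.485, limma adjusted p = 0.354). The heme gene was alike in null 1 and null 2, both below flox 2 and above flox 1 and flox 3. Slc4a1 stood at 69.6, 207 and 55.8 RPKM in flox and 111, 126 and 202 RPKM in null hearts, a log2 difference of 0.60 (SE 0.461, limma adjusted p = 0.457). For this membrane gene flox 2 was the highest of all 6 libraries. Tfrc stood at 123, 197 and 73.4 RPKM in flox and 105, 137 and 142 RPKM in null hearts, a log2 difference of 0.07 (SE 0.326, limma adjusted p = 0.921). Epb42 stood at 9.56, 30.1 and 7.65 RPKM in flox and 11.2, 12.8 and 20.6 RPKM in null hearts, a log2 difference of 0.13 (SE 0.466, limma adjusted p = 0.891). Flox 2 was the highest library for these 2 genes as well, and their mean RPKM was lower in null than in flox hearts while the log2 difference was above 0.

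**Figure D2:**
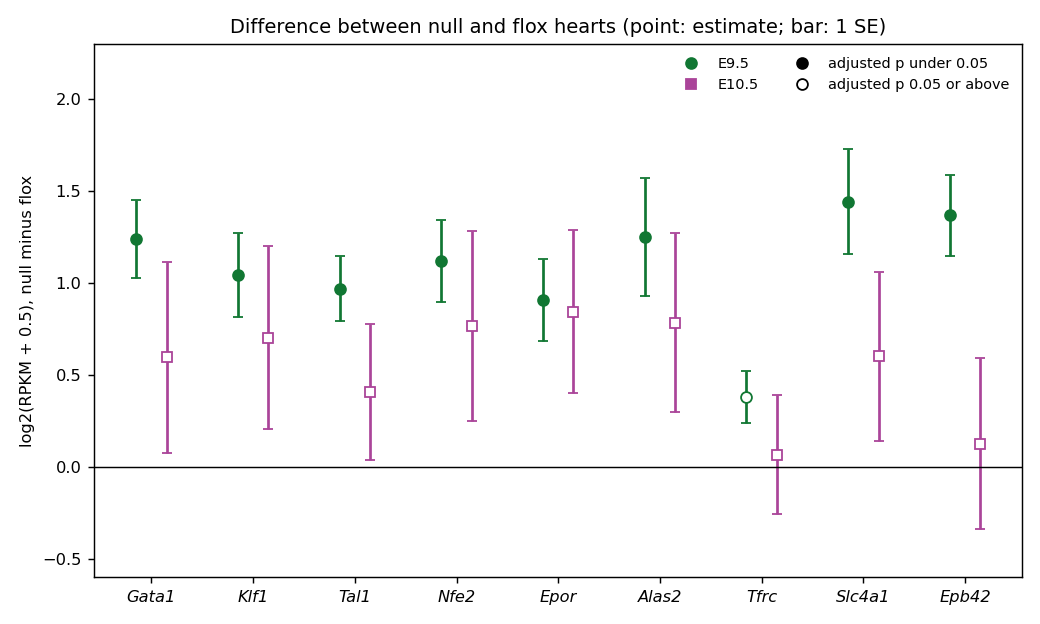
Difference between null and flox hearts in log2(RPKM + 0.5) for each gene at E9.5 (green circles) and E10.5 (purple squares), with bars of 1 SE; filled points passed an adjusted p under 0.05. At E9.5 8 of 9 points are filled, between 0.91 and 1.44, and at E10.5 all 9 are open, between 0.07 and 0.84.

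The median log2 difference at E10.5 was 0.60 (-0.03 over all genes tested), and the SE of the 9 genes was 0.326 to 0.518, against 0.144 to 0.320 at E9.5. Flox 2 and null 3 were the highest libraries of their groups for all 9 genes, and null 1 was the lowest null library for 8. Without flox 2 the median was 1.15 and without null 3 it was 0.21, with 0 of 9 passing in either case. Without null 3 the differences of Tfrc (-0.01) and Epb42 (-0.13) fell below 0. The liver gene Afp was high in flox 2 and null 3, the 2 libraries that led the erythroid genes, and also in null 2, which did not. Leaving out flox 2, null 2 and null 3 keeps 2 flox libraries and 1 null library, whose spread is then assumed to be that of the flox libraries. In that fit Alas2 passed (log2 difference 1.03, adjusted p = 0.0382), the other 8 did not, and the median was 0.37. The authors' deposited table for E10.5 lists none of the 9 genes among its 1357. The part of the liver RNA in these values was not tested.

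The change between genotypes was then compared between the stages in 1 fit over all 16 libraries. None of the 9 genes passed, where 3.82% of 13886 genes did in either direction. The estimate for Epb42 was the farthest from 0, its log2 difference between null and flox being smaller at E10.5 than at E9.5 (-1.24, SE 0.514, unadjusted p = 0.0284, limma adjusted p = 0.143), and 12.2% of genes had a negative estimate at an unadjusted p under 0.05. The other 8 estimates ran from -0.84 for Slc4a1 (SE 0.568) to -0.06 for Epor (SE 0.499), with adjusted p of 0.360 to 0.951. Without flox 2 of E10.5 the estimates of Klf1 (0.11), Nfe2 (0.19), Epor (0.33), Alas2 (0.11) and Tfrc (0.04) lay above 0. Rises that passed at E9.5 and not at E10.5 are thus not shown to differ between the stages.

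The order of the levels was read per kilobase within a group. In flox hearts at E9.5 Tfrc (90.4 ± 13.3 RPKM, SD, n = 5) lay above Alas2 (59.2 ± 29.3) and Slc4a1 (48.2 ± 17.5). The ranges of Alas2 overlapped those of both neighbours, and Tfrc did not overlap Slc4a1. The other 6 genes had means of 14.1 RPKM (Tal1) to 4.55 RPKM (Epb42), and every one of their libraries lay below every library of these 3. Tal1 and Klf1 did not differ beyond their spread, and neither did Nfe2 and Epb42. In null hearts at E9.5 Alas2 (139 ± 53.2 RPKM), Slc4a1 (134 ± 55.3) and Tfrc (119 ± 25.2) could not be ordered, and Epb42 (12.6 ± 3.55) stood beside Nfe2 (11.1 ± 3.94) at the foot. At E10.5 the same 3 genes held the 3 highest means in both genotypes, at 111 to 135 RPKM in flox and 128 to 208.0 RPKM in null hearts. In the 3 flox hearts at E10.5 Epb42 had a mean of 15.8 ± 12.5 RPKM, above that of Nfe2 (8.54 ± 6.43), and each flox library held more Epb42 than Nfe2. Stage, RNA input and table of origin cannot be told apart, so levels are not tested between stages.

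Each gene was next set against the summed RPKM of the globin genes in the same library, which leaves out any scaling that a library shares. Near-identical globin copies were counted once. The globin sum was 10916, 13289, 15622, 18255 and 28851 RPKM in the flox libraries and 27633, 30027, 46554, 57184 and 74587 RPKM in the null libraries at E9.5, in rising order. At E10.5 it was 24154, 24645 and 67452 RPKM in flox and 46325, 58036 and 142000 RPKM in null hearts. The groups overlapped at both stages, at E9.5 only through flox 3, which lay above null 1. The mean globin sum was 17387 RPKM in flox and 47197 RPKM in null hearts at E9.5, and 38750 and 82120 RPKM at E10.5. A gene with equal RPKM in both genotypes would thus have a lower mean ratio in null hearts. The ratio was compared by range only, with no test.

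At E9.5 Alas2 stood at 3.12 to 3.80 RPKM per 1000 globin RPKM in flox and at 2.82 to 3.11 in null hearts, so the null range lay wholly below the flox range, with a log2 difference of -0.17. For Tfrc the ratio was 3.39 to 7.40 in flox and 2.05 to 3.33 in null hearts, without overlap and with a log2 difference of -1.04. The other 7 genes overlapped, and the share of all genes without overlap was not taken. Slc4a1 kept nearly the same ratio, at 2.58 to 3.02 in flox and 2.60 to 3.16 in null hearts (log2 difference 0.02), and Epb42 was close to it (-0.05). Among the factors the log2 differences were -0.18 for Gata1, -0.30 for Nfe2, -0.38 for Klf1 and -0.45 for Tal1, and for Epor it was -0.52. Against the summed RPKM of the other 8 genes in place of globins, the 2 membrane genes did not overlap at E9.5. Slc4a1 stood at 197 to 270.3 RPKM per 1000 RPKM of the others in flox and 317 to 422 in null hearts (log2 difference 0.58). Epb42 stood at 15.3 to 20.7 in flox and 21.9 to 29.0 in null hearts (log2 difference 0.39). With 0.5 RPKM added to the gene before the ratio was taken, Slc4a1 still did not overlap and Epb42 did. Both sums include Tfrc, which had the highest flox mean of the 9 genes and the smallest difference. Against the other 8 genes the log2 difference was -0.89 for Tfrc, 0.34 for Alas2 and 0.26 for Gata1. It was 0.13 for Nfe2, 0.05 for Klf1, -0.02 for Tal1 and -0.09 for Epor. The share over all genes was not taken here either.

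At E10.5 the ratio to globins lay below the flox range in every null library for Epb42 and Tal1. Epb42 stood at 0.317 to 0.447 RPKM per 1000 globin RPKM in flox and 0.145 to 0.276 in null hearts (log2 difference -0.96), and Tal1 at 0.607 to 0.792 and 0.350 to 0.591 (-0.68). Epb42 also lay lower in every null library against the other 8 genes, at 29.6 to 38.1 RPKM per 1000 RPKM in flox and 23.8 to 25.3 in null hearts (-0.40). The ratios of the other 7 genes overlapped, with log2 differences from -1.02 for Tfrc to -0.24 for Epor. Null 2 was the null library with the highest ratio for all 9 genes, and without it all 9 lay below the flox range. The share of all genes that did so was not taken.

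**Figure D3:**
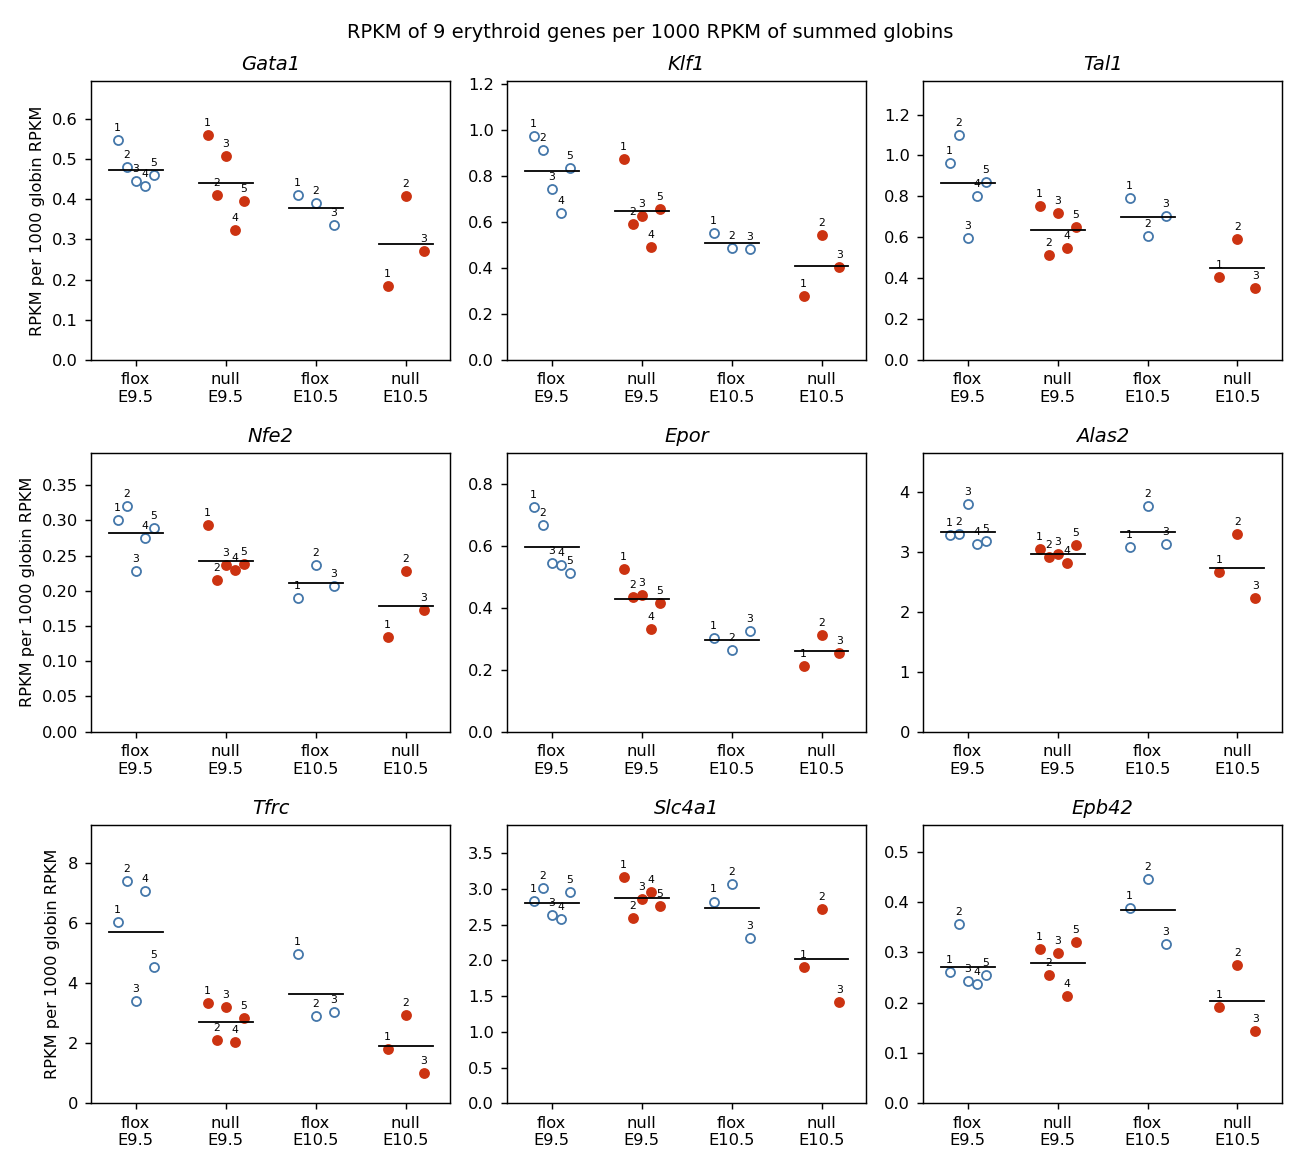
RPKM of each gene per 1000 RPKM of summed globins (linear axis from 0) in every library, open blue points for flox and filled red points for null, with replicate numbers and a line at the group mean. At E9.5 Slc4a1 lies between 2.58 and 3.16 in both genotypes while Tfrc is 3.39 to 7.40 in flox and 2.05 to 3.33 in null, and at E10.5 Epb42 is 0.317 to 0.447 in flox and 0.145 to 0.276 in null.

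The 9 genes varied together between libraries of the same group. Deviations from the group mean over the 16 libraries, on the log2(RPKM + 0.5) scale, gave Pearson correlations of 0.65 to 0.98 over the 36 pairs, with a median of 0.92. These points share their library, its depth and its group, and no p is given. Each gene followed the mean of the other 8 at 0.95 to 0.98, except Tfrc at 0.77. Alas2 followed the globins most closely (0.98) and Tfrc least (0.70). The spread of the deviations was widest for Alas2 (SD 0.61) and narrowest for Tfrc (0.33) and Tal1 (0.40). Among 12285 genes averaging 1 RPKM or more, those outside the 9 whose deviations were most like their mean included Add2 (0.98), Acp5, Ccdc92b, Ikzf1, Slc6a9, Abcb10, Kel, Ank1 and Icam4 (0.973). Add2, Kel, Ank1 and Icam4 belong to the list of red cell membrane genes, where 14 of 21 genes were among the 100 most alike.

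**Figure D4:**
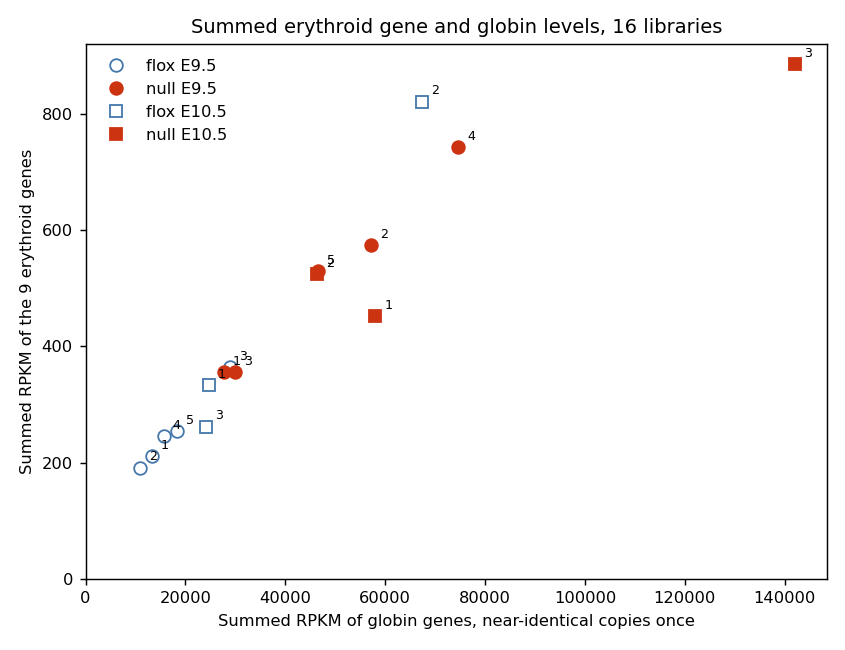
Summed RPKM of the 9 genes against the summed RPKM of globins in the 16 libraries, with replicate numbers; circles are E9.5, squares E10.5, open blue flox and filled red null. The E9.5 libraries run from 191.6 and 10916 RPKM in flox 2 to 742.9 and 74587 RPKM in null 4, and null 3 of E10.5 has the highest of both sums, 886 and 142000 RPKM.

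Other genes of the red cell were read from lists, by counts and medians beside those of all genes tested, of which 6.87% rose and 10.3% fell at E9.5 with a median log2 difference of -0.04. Of 21 heme synthesis and transport genes, 11 rose and 0 fell at E9.5 (median log2 difference 0.60). They included Slc25a37, the mitochondrial iron importer (45.4 ± 14.2 to 112.6 ± 32.3 RPKM, log2 difference 1.30, adjusted p = 0.00386), Fam210b (0.95), the heme-binding protein gene Hebp1 (0.86) and Uros, which makes uroporphyrinogen III (0.60). Of 21 genes of the red cell membrane and its skeleton, 16 rose and 1, Tmod1, fell (-0.30), with a median of 1.02. Add2, the erythroid adducin (1.07), Ermap (1.47), Dmtn, which encodes dematin (1.01), and the blood group gene Kel (1.59) had the smallest p among them. Among 11 globin genes and copies 5 rose, led by Hbb-bh1 (5097 ± 1919 to 14641 ± 5860 RPKM, 1.50), Hbb-y (1.43) and Hba-x (1.38). The calls of all 3 ended with no filter on low values, and those of Hbb-y and Hba-x with quantile normalization (limma adjusted p up to 0.123 for Hbb-y).

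Lists of factors, iron genes and signals had lower medians than the heme and membrane lists. Of 24 further transcription factor genes and partners, 6 rose and 0 fell (median 0.11), among them Ikzf1 (1.26), Lyl1, a relative of Tal1 (0.52), and E2f2 (0.79). The largest was Spi1, which encodes the myeloid factor PU.1. It stood at 0.289, 0.440, 0.807, 0.849 and 0.663 RPKM in flox and 2.80, 5.18, 4.26, 3.65 and 2.77 RPKM in null hearts (log2 difference 1.93, SE 0.194, adjusted p = 0.000166). Of 18 iron genes 4 rose, among them the ferritin gene Fth1 (0.56), the ferrireductase gene Steap3 (0.79) and Tfr2 (0.79), and 2 fell, Cisd1 (-0.55) and Pcbp1 (-0.30). The call of Fth1 ended under 8 of 21 alternatives (adjusted p up to 0.0750). Of 14 genes of erythropoietin and Kit signalling 2 rose, Jak2, the kinase bound to the erythropoietin receptor (0.43), and the phosphatase gene Ptpn6 (0.53). Of 9 red cell enzymes and other red cell genes 5 rose, among them Hemgn (1.61), Car2 (1.44) and Pklr (1.51). Pcbp1 and Tmod1 were named after their values were seen.

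At E10.5, where 1.77% of all tested genes rose, few genes of these lists passed. Hmox1, the heme-degrading oxygenase, stood at 16.5, 17.8 and 17.5 RPKM in flox and at 58.5, 45.1 and 38.3 RPKM in null hearts, with no overlap (log2 difference 1.41, adjusted p = 0.00923). It was the 1 gene of 21 in its list. Spi1 rose from 0.268, 1.46 and 0.716 RPKM to 4.44, 5.04 and 6.21 RPKM (2.22, adjusted p = 0.0178), the 1 of 26 factors. Ptpn6 rose from 1.89, 2.03 and 2.22 RPKM to 4.21, 5.75 and 5.85 RPKM (1.17, adjusted p = 0.0235), the 1 of 15 signalling genes. Of 10 globin genes and copies, Hbb-bs and its copy Hbb-b1 rose (2.09). In the iron, membrane and enzyme lists 0 of 18, 0 of 21 and 0 of 10 genes passed in limma. The calls of Hmox1, Spi1, Ptpn6 and Hbb-bs ended under 2, 4, 7 and 5 of 17 alternatives, with adjusted p of up to 0.0552, 0.0759, 0.111 and 0.135. The list medians were 1.24 for globins, 0.36 for heme, 0.33 for membrane and 0.35 for factors.

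**Figure D5:**
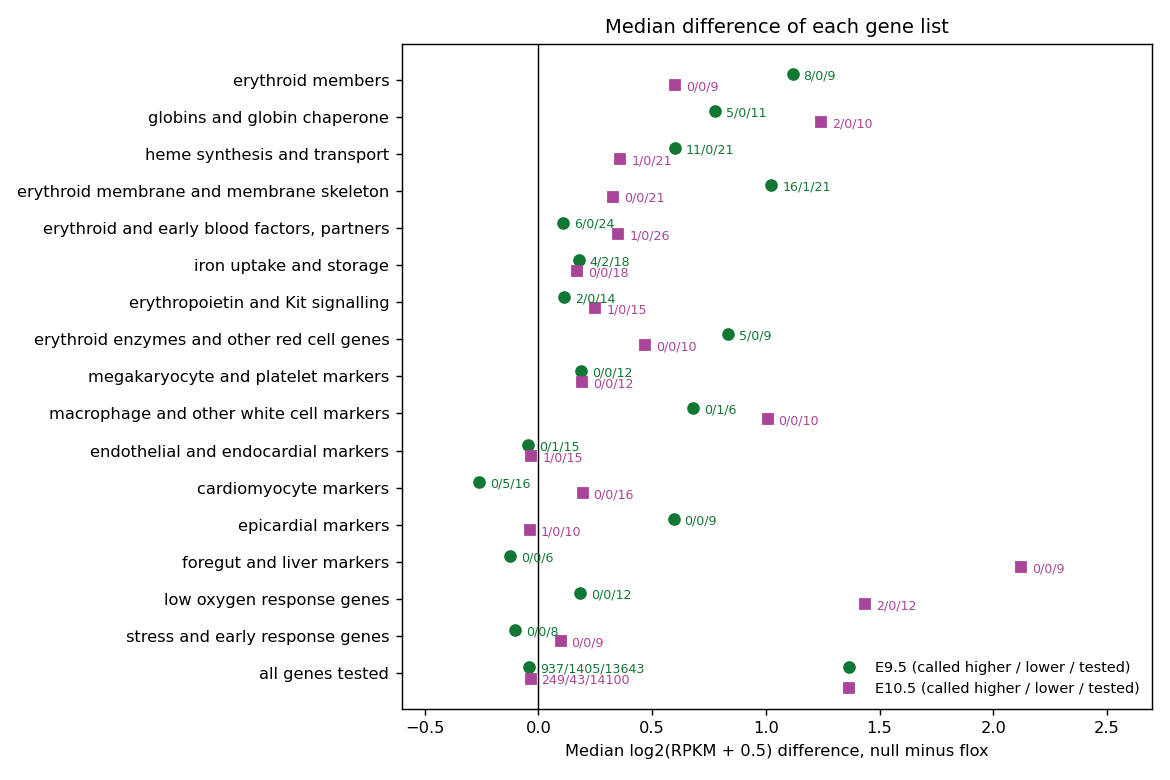
Median difference between null and flox hearts in log2(RPKM + 0.5) for each gene list at E9.5 (green circles) and E10.5 (purple squares), with the number of genes called higher, called lower and tested beside each point. The 9 genes are at 1.12 and 0.60, and all genes tested are near 0 at both stages (-0.04 and -0.03).

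Markers of other cells in these hearts were read in the same way. At E9.5 none of 12 megakaryocyte and platelet genes passed (median 0.19), and their summed level was 27.2 to 87.6 RPKM in flox and 33.2 to 122 RPKM in null hearts. Of 6 white cell markers tested, which had a median log2 difference of 0.68, Lyz2 fell (-0.64). Fcer1g (1.11), Mpo (1.13) and Tyrobp (1.30) were above 0 and did not pass, with limma adjusted p of 0.0880, 0.189 and 0.126. The sum of the white cell markers was 5.82 to 14.3 RPKM in flox and 6.06 to 25.1 RPKM in null hearts. Beside the 10.3% of all tested genes that fell, 1 of 15 endothelial markers did, Sox18 (-0.58). The endothelial median was -0.04, and Pecam1 (0.32) and Emcn (0.22) were above 0 and did not pass. Of 16 cardiomyocyte markers 5 fell, Nkx2-5 (-1.45), Myh6 (-0.76), Actn2 (-0.51), Myl4 (-0.51) and Actc1 (-0.35), the last named after its value was seen. None of 9 epicardial genes (median 0.59), 6 liver genes or 12 low oxygen genes passed at E9.5. Low oxygen genes summed to 1130 RPKM in flox 4 and 1229 RPKM in null 4 and to 545 to 674 RPKM in the other 8 libraries. Null 4 was also the highest null library for 8 of the 9 erythroid genes, and flox 4 the highest flox library for Tfrc. The calls of Lyz2 and Sox18 ended under 10 and 13 of 21 alternatives (adjusted p up to 0.124 and 0.105), and that of Myl4 under 6 (up to 0.122).

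At E10.5 low oxygen genes summed to 265.7 to 345.9 RPKM in flox and to 1146, 518 and 435 RPKM in null 1, null 2 and null 3, with Ndufa4l2 (log2 difference 4.05) and Ndrg1 (3.10) called. Null 1, the highest for these, was the lowest null library for 8 of the 9 erythroid genes. Liver genes, of which 0 of 9 passed (median 2.12), summed to 7.16, 193 and 14.5 RPKM in flox and 26.4, 1435 and 1035 RPKM in null hearts. Of 10 white cell markers tested none passed (median 1.01), and their sum was 14.5 to 35.0 RPKM in flox and 31.4 to 62.2 RPKM in null hearts. Of 10 epicardial genes Krt19 rose (2.29), while the list median was -0.04 and Sema3d (-0.43), Tbx18 (-0.44) and Bnc1 (-0.47) did not pass. Of 15 endothelial genes Egfl7 rose (0.91), while the median was -0.03 and Cdh5 (-0.34), Tek (-0.49) and Npr3 (-0.53) did not pass. At this stage 0 of 16 cardiomyocyte and 0 of 12 megakaryocyte genes passed. The calls of Egfl7 and Ndrg1 ended under 6 and 5 of 17 alternatives (adjusted p up to 0.1495 and 0.103). The part of these other cells in the erythroid values was not tested.

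CHD4 binding at the 9 genes was read from the authors' peak lists of 84271, 60749 and 50232 peaks (mm10), of which 22824 were shared by all 3 with at least 1 bp of overlap. A shared peak lay within 5 kb of 3 of the 9 genes, of the start site for Klf1 and Tfrc and of 1 annotated gene end for Nfe2, against 64.1% of 13184 tested genes with coordinates. Nfe2 and Slc4a1 had no start site in the table and were read from either annotated gene end, as were 22.2% of tested genes, so whether a peak is near the start of Nfe2 is not known here. At Tfrc (chr16:32608896-32632794) a shared peak at chr16:32608559-32609134, with a score of 291 in the first list, covered the start site and the whole stretch printed for it. Smaller ones lay at chr16:32607927-32608204 and chr16:32611536-32611709, with scores of 25 and 13. Tfrc had the smallest log2 difference of the 9 between genotypes at both stages. At E10.5 it was not set apart from Epb42 (0.07, SE 0.326, and 0.13, SE 0.466). Whether the peak bears on the difference was not tested. At Nfe2 (chr15:103248212-103258403) 2 shared peaks lay in the gene, at chr15:103248623-103249755 and chr15:103250196-103250746. At Klf1 (chr8:84901982-84905291) the peak chr8:84903087-84903330 lay in the gene body, 1.1 kb from the start, with a score of 56.

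The other 6 genes had no shared peak within 5 kb. For Epor (chr9:21958897-21963576) the nearest was 7.18 kb from the start, for Gata1 (chrX:7959260-7976663) 19.6 kb, and for Slc4a1 (chr11:102348820-102365281) 27.8 kb from the nearer gene end. Tal1 (chr4:115056426-115071755), Alas2 (chrX:150547417-150570622) and Epb42 (chr2:121017891-121036877) had none within 50 kb. Within 50 kb 6 of the 9 genes had a shared peak, against 84.7% of tested genes, and within 1 kb 2, against 57.1%. A peak in any 1 of the 3 lists lay within 5 kb of 5 of the 9 (Klf1, Tal1, Nfe2, Epor and Tfrc), against 91.6%. The nearest Epor peaks lay 100, 158 and 0 bp from the start in lists 1, 2 and 3, but did not all overlap. At Tal1, lists 1 and 2 held overlapping peaks 336 and 401 bp from a start, and the nearest in list 3 was 17.6 kb away. Genes without a shared peak can thus have peaks near the start in single lists. Among other lists the share within 5 kb was 0 of 11 for globins, 7 of 21 for red cell membrane genes, 2 of 8 for red cell enzymes and 13 of 21 for heme genes. It was 12 of 18 for iron genes, 17 of 24 for transcription factors and partners, 11 of 14 for erythropoietin and Kit signalling, and 13 of 16 for cardiomyocyte markers. The score is the authors' value per peak, and the lists come from whole hearts, in which the cell type behind a peak cannot be told apart.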

How the data were processed

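RNA was measured by stranded polyadenylated sequencing in 16 libraries, and CHD4 binding by ChIP sequencing in 3. The authors deposited RPKM per gene with gene lengths, and the labels do not say how RPKM was computed. The submitters' processing notes name Bowtie 1.2.0, HTSeq 0.6.2, DESeq2 1.6.3, SAMtools 1.6, bedtools 2.25.0 and MACS2, with the build mm10. The authors' deposited comparison tables give log2 ratios, adjusted p-values and a mean signal per gene, made with DESeq2 per the file headers. The authors' deposited peak lists give a score per peak, called per library.

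The product of RPKM and length was divided by its smallest value above 0 in the library. The result was a whole number, to within 0.01, for 100% of values. With that smallest value taken as 1 read, depth was 17050298 to 23492785 reads per library. Reads carry no molecular identifiers, and depth limits counting error only. Genes averaging 0.5 RPKM or more at a stage were fitted with limma 3.58.1 (R 4.3.3) on log2(RPKM + 0.5), with a mean-variance trend, two-sided, and Benjamini-Hochberg adjustment over all genes tested (threshold 0.05). Fold changes of low genes are understated on this scale. The difference between stages was 1 interaction fit over 16 libraries. The fits were tested on simulated data. Near-identical globin copies (Hba-a2, Hbb-b1 and Hbb-b2) were left out of globin sums. Whether the counting used strand is not given, so overlapping and antisense genes and globin copies are uncertain. Nothing in the labels ties libraries to litters, and p-values measure the spread between these libraries.

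The 9 genes and the other lists were chosen with earlier results of these data known. Besides the 9, the genes named are up to 4 of smallest p per list and stage, the 10 whose deviations are most alike, Chd4 and globins. Of these, only genes whose value bears on a result are printed, and 1 of the 10 is not reported here. Alternatives were other pseudocounts, filters, scalings and weights, a replicate block, voom on recovered reads, other peak windows, and leaving out libraries. The fit without the 3 libraries with most liver RNA was added after the data were seen.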

Additional observations from a re-analysis of the deposited data

How the results depend on the processing

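Over the 9 genes and 3 comparisons, 553 of 576 alternative values kept their direction and their side of the threshold, 4 lost a call, 3 gained one and 16 changed sign. Only the E9.5 comparison had calls to lose, so this count says little about the size of the differences. Leaving out 1 library, the median log2 difference ran from 0.21 to 1.15 at E10.5. The median of the interaction ran from -0.84 to 0.04. Leaving out 1 library gave 7 to 9 of the 9 genes higher at E9.5, and 0 of 9 each time at E10.5. Over all genes, 2342 were called at E9.5, and 3549 with arrayWeights, 1349 without the 3 libraries with low epicardial genes, and 1537 to 2773 leaving out 1 library. At E10.5, 292 were called, and 162 with no filter, 1426 with arrayWeights, 541 without the 3 libraries with most liver RNA (1 of the 9 genes), and 62 to 356 leaving out 1 library. The interaction called 531, and 860 with quantile normalization, 301 with arrayWeights, 18 without the low epicardial libraries, and 4 to 1795 leaving out 1 library. The causes were not tested. Median scaling moved the share of E9.5 calls that were higher from 40.0% to 52.5%.

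Nothing in the labels says whether replicate numbers pair the libraries. Correlations of same-numbered deviations were 0.451, 0.0417, -0.136, 0.519 and 0.258 at E9.5. At E10.5 they were 0.0509, 0.106 and -0.0299. Flox 1, flox 4 and flox 5 at E9.5 correlated best with the null library of their own number. So did flox 1 and flox 2 at E10.5, and the other flox libraries did not. Whether the numbers mark pairs was not tested. With the replicate block 3698 genes were called at E9.5, with Tfrc among them (limma adjusted p = 0.0280), and 1377 in the interaction.

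At E10.5, leaving out 1 library gave log2 differences of -0.29 to 0.42 for Tfrc and -0.24 to 0.71 for Epb42, below 0 for Tfrc without flox 3 or null 3 (-0.01) and for Epb42 without flox 1 (-0.09), flox 3 or null 3 (-0.13). The interaction ranged from -0.84 to 0.11 for Klf1, -0.81 to 0.19 for Nfe2, -0.53 to 0.33 for Epor, -0.81 to 0.11 for Alas2 and -0.67 to 0.04 (0.0365) for Tfrc, each highest without flox 2 of E10.5. The ratio to globins lay below the flox range in all null libraries for 2 genes at each stage, and the share over all genes was not taken. Leaving out 1 library, that number was 2 to 4 for E9.5, with 4 reached without null 1. For E10.5 it was 2 to 9, with 9 reached without null 2, and the other 8 genes as denominator gave 0 and 1. A shared peak was near 3 genes within 5 kb, 6 within 50 kb, and 5 with a peak in any list. At E10.5 the SEs of the 9 genes were 0.326 to 0.518, with 3 libraries a group.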
